A study of Rattus norvegicus with 14 samples.

Results

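The genes described here encode 9 peptidases and proteases of the intestinal epithelium: Anpep (alanyl aminopeptidase, membrane), Enpep (glutamyl aminopeptidase), Dpp4 (dipeptidyl peptidase 4), Mep1a and Mep1b (the alpha and beta subunits of meprin), Cela1 (chymotrypsin-like elastase 1), Cpd (carboxypeptidase D), St14 (matriptase) and Prss8 (prostasin). They were chosen by gene name in the array design, with every probe of each gene. All 9 genes were on the array, with 10 probes of the 30367 that were not controls, since Dpp4 had 2 probes. The question was whether their mRNA differed in colonocytes, the epithelial cells of the colon, between diets of different protein content.

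Male Wistar rats received for 15 days, with free access, either a normal-protein diet (NPD) with 14% of energy from protein or a high-protein diet (HPD) of equal energy with 55%. Colonocytes were detached from the flushed colon with EDTA, so that a preparation holds the whole detached layer and not a sorted cell type, and a lower signal from fewer cells of a type cannot be told apart from less RNA per cell. RNA of 7 rats per diet was hybridised to 1-colour Agilent arrays, 1 array per rat. The arrays lay on 2 slides, with 4 NPD and 3 HPD arrays on slide 1 and 3 NPD and 4 HPD arrays on slide 2.

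Brush-border peptidases such as Anpep, Enpep, Dpp4 and the beta subunit of meprin are anchored in the apical membrane of intestinal epithelial cells, where they cut peptides in the lumen. Cpd removes basic residues from the end of peptides in the secretory pathway. Matriptase and prostasin form a cascade of membrane serine proteases that is known for its part in epithelial barrier formation and in the activation of the epithelial sodium channel.

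The probes of Cela1, Cpd and Anpep and the dimmer Dpp4 probe are printed 5′ to 3′ in lower case, as the scanner files give them, with positions of build rn4. The Mep1b probe has no position in that build and is not printed. Each has 60 bases. No annotation of that build was used here, so that the exon of a probe is not given. The Cela1 probe (NM_012552) lies on chr7:139446078-139447892, minus strand, and the Anpep probe (NM_031012) on chr1:135604381-135605238, minus strand. Both spans, of 1815 and 858 bases, are longer than the probe, so that these sequences are not contiguous in the genome. The Cpd probe (NM_012836) lies on chr10:67388022-67388081, plus strand, and the Dpp4 probe A_64_P051726 (NM_012789) on chr3:44283428-44283487, minus strand. Reading frames without a stop codon number 3 in the Cela1 probe and 1 in each of the other printed probes.
Cela1: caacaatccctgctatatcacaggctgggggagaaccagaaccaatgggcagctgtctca
Cpd: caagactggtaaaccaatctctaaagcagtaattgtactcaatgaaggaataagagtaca
Anpep: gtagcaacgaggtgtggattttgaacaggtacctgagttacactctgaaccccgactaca
Dpp4: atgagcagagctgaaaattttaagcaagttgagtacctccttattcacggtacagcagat

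Levels are given as the log2 of the background-subtracted signal minus the median of the array, so that 0 is the median spot of an array and 1 unit is a doubling. Differences are HPD minus NPD. Across all probes the median difference was 0.17 in this scale and 0.00067 after cyclic loess, which removes trends with signal, so that a probe at 0.17 moved like the middle of the array. An unadjusted p under 0.05 with a lower HPD mean was found for 1017 probes and with a higher one for 3107, against 1947 and 1592 after cyclic loess. The median over probes of the background-subtracted signal, before log2, ranged from 66.1 to 100.5 on the NPD arrays. On the HPD arrays it ranged from 53.5 to 75.1. The part of this in the median difference of 0.17 was not tested. Between 18094 and 20414 probes per array were well above background. Markers of epithelium were above background on every array in 7 of 7 cases and those of absorptive colonocytes in 7 of the 8 on the array. The same held for 8 of 8 goblet cell and 6 of 7 small-intestinal enterocyte markers. It also held for 6 of 10 immune and 7 of 10 stromal and muscle markers. Detection on every array therefore does not set epithelium apart from other cells, while the level of the markers differed. The summed signal relative to the array median of 7 epithelial markers had a median of 2950 in the NPD and 2645 in the HPD rats. That of 6 immune markers was 60.5 and 59.9, and that of 7 stromal and muscle markers 11.2 and 9.84. These sums are not shares of cells.

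At a q-value below 0.1 in limma, with adjustment over all probes, 0 of the 10 probes differed between the diets, beside 0.0692% of all probes. At an unadjusted p under 0.05, 3 of the 10 did, beside 13.6% of all probes. These were Cela1 and Cpd, lower in the HPD group (2 of 10, beside 3.35% of all probes), and Mep1b, higher (1 of 10, beside 10.2%). The HPD mean was the lower one in 5 of the 10 probes, beside 29.3% of all probes. After cyclic loess it was also lower in 5 of 10, beside 49.9%, with 2 of 10 lower at an unadjusted p under 0.05, beside 6.41%. Blocked by slide, the limma fit called 0 of 10 probes, beside 0.079%. At an unadjusted p under 0.05 in that fit, 2 of 10, Cela1 and Cpd, were lower, beside 4.62%. Mep1b was higher in that fit, with the lowest unadjusted limma p of the 10 probes (0.00538). The share of all probes higher in that fit was not counted. The values of the diets overlapped in all 10 probes, and were separate in 0.286% of all probes. The median difference of the 10 probes was 0.07.

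**Figure D1:**
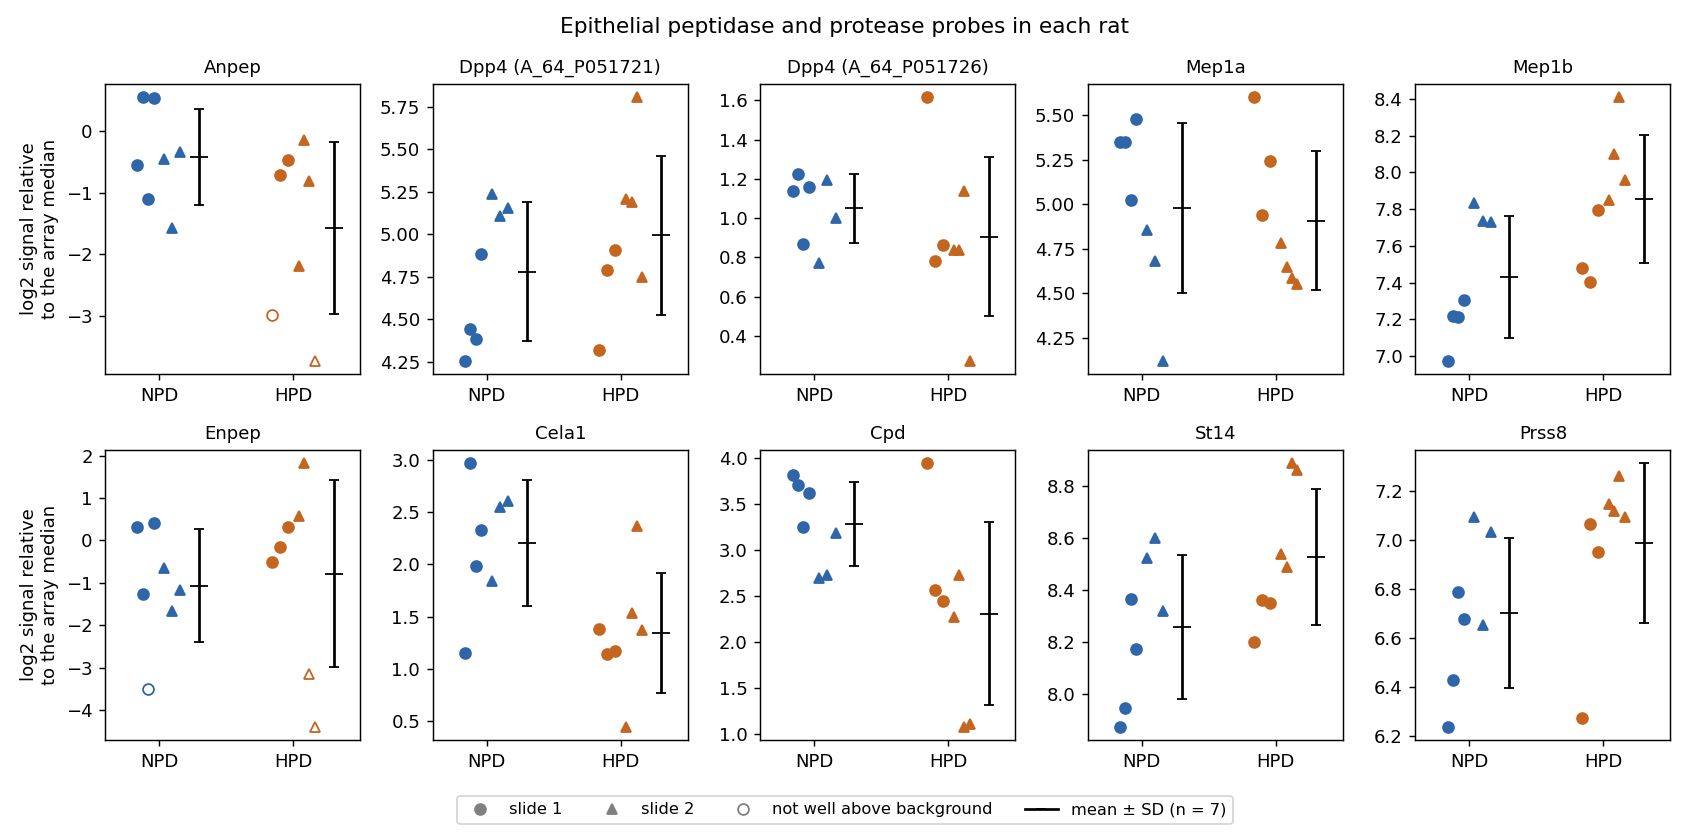
Log2 signal relative to the array median (vertical axis, scaled separately in each panel) of the 10 probes in each rat of the NPD and HPD groups, with circles for slide 1, triangles for slide 2, open symbols for signals not well above background, and the mean ± SD of 7 rats beside them. Cela1 and Cpd are lower in 6 of 7 HPD rats than the NPD mean, Mep1b is higher in 6 of 7, and the slides lie apart in Mep1a and Mep1b.

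Cela1, a digestive serine protease related to the pancreatic elastases, ranged in the NPD rats from 1.16 to 2.97 with a median of 2.33, and in the HPD rats from 0.45 to 2.37 with a median of 1.37. The HPD values were below the NPD mean in 6 of 7 rats and below every NPD value in 2, while NPD replicate 1 lay among the HPD rats. The means were 2.20 ± 0.60 and 1.35 ± 0.57 (SD, n = 7 each), a difference of -0.86 (SE 0.29), or 0.551 times the NPD level. The unadjusted limma p was 0.00999 and the adjusted p 0.363, and the exact two-sided permutation test over the 3432 splits of the rats gave p = 0.0198. The difference was -0.88 on slide 1 and -0.90 on slide 2, so that the slides gave nearly the same size. Both spots of the probe differed by an SD of 0.092 on an array. In the decile of probes with a similar signal, 0.428% had a more negative difference.

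Since Cela1 is also a product of the exocrine pancreas, the markers of that tissue were examined beside it. Of 8 such genes on the array, 6 were above background on no array, among them Prss1, Cpb1, Cela2a, Cela3b and Pnlip. The other two, Ctrb1 and Cel, were above background on all 14 arrays. Their summed signal relative to the array median ranged from 2.01 to 3.09 in the NPD rats and from 2.33 to 3.85 in the HPD rats. The part of pancreatic RNA in the Cela1 values was not tested.

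Cpd, the membrane carboxypeptidase of the trans-Golgi network, ranged from 2.70 to 3.82 (median 3.25) in the NPD rats and from 1.08 to 3.95 (median 2.45) in the HPD rats. Below every NPD value were 5 of the 7 HPD rats, with HPD replicates 6 and 7 at 1.08 and 1.11, while HPD replicate 1 was above every NPD rat. The means were 3.29 ± 0.45 and 2.31 ± 0.99 (SD, n = 7 each), a difference of -0.98 (SE 0.38), or 0.508 times the NPD level. The unadjusted limma p was 0.0207, the adjusted p 0.363, and the exact two-sided permutation p 0.0361. Of the 10 probes, Cpd was also among the 6 with a slide difference at q below 0.1 in a fit of diet and slide (42.1% of all probes had one), with slide 2 lower by 0.96. Within the slides the diets differed by -0.61 and -1.07, and with slide as a block by -0.84 (adjusted p = 0.212). On slide 2 only HPD replicate 5, at 2.73, reached the NPD values of 2.70 to 3.18. Without HPD replicate 1 the difference was -1.25 (limma adjusted p = 0.113).

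Anpep and Enpep, aminopeptidases that release neutral and acidic residues, gave the dimmest signals of the members. Anpep ranged from -1.58 to 0.56 (median -0.45) in the NPD rats and from -3.73 to -0.13 (median -0.80) in the HPD rats. It was well above background in 7 of 7 NPD rats and 5 of 7 HPD rats, the exceptions being HPD replicates 1 and 7, which were the lowest. The means were -0.42 ± 0.79 and -1.57 ± 1.39 (SD, n = 7 each), a difference of -1.15 (SE 0.55). The unadjusted limma p was 0.0522 and the exact permutation p 0.0833, and with the array median taken over probes the unadjusted limma p was 0.0426. With the values not above background set to missing, a fit that drops those 2 HPD rats, the difference was -0.44 (SE 0.40).

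Enpep was well above background in 6 of 7 NPD and 5 of 7 HPD rats. Its level was -1.08 ± 1.33 in the NPD and -0.79 ± 2.20 in the HPD group (SD, n = 7 each), with values from -3.51 to 0.41 and from -4.40 to 1.83. The difference of 0.29 had a 95% interval from -1.58 to 2.16, and was 0.90 on slide 1 and -0.13 on slide 2, so that no direction could be given at this spread. It became 1.08 (SE 0.46, limma adjusted p = 0.304) where NPD replicate 3 and HPD replicates 6 and 7, not above background, were set to missing.

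Dpp4, which takes dipeptides with a proline or alanine off the amino end of peptides, had a probe on either side of zero. Probe A_64_P051721 ranged from 4.26 to 5.24 (median 4.88) in the NPD and from 4.32 to 5.81 (median 4.91) in the HPD rats, a difference of 0.21 (95% interval -0.27 to 0.69). On this probe slide 2 was higher by 0.62 (limma q = 0.00931 in the fit of diet and slide). With slide as a block its diet difference was 0.13. Probe A_64_P051726 ranged from 0.77 to 1.22 (median 1.14) and from 0.27 to 1.62 (median 0.84), a difference of -0.14 (95% interval -0.50 to 0.22). The diets overlapped on both probes, and single rats moved both values. The difference of the former was 0.078 without HPD replicate 6, and that of the latter -0.038 without HPD replicate 7 and -0.26 without HPD replicate 1. The difference between the probes within an array, which does not depend on centring, changed by 0.36 between the diets, with an exact permutation p of 0.269 (0.404 after Benjamini-Hochberg adjustment over the 3 such comparisons made, chosen after the values were seen). Over the 14 arrays the residuals of the probes had a Pearson's r of 0.18.

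The meprin subunits differed in how they lay by slide. Mep1b ranged from 6.97 to 7.83 (median 7.31) in the NPD rats and from 7.40 to 8.41 (median 7.85) in the HPD rats, of which 6 of 7 were above the NPD mean and 4 above every NPD value. The means were 7.43 ± 0.33 and 7.86 ± 0.35 (SD, n = 7 each), a difference of 0.43 (SE 0.18), or 1.34 times the NPD level. The unadjusted limma p was 0.0321, the adjusted p 0.363, and the exact permutation p 0.0402. The difference was 0.26 above the median of all probes and 0.24 after cyclic loess, and with the array median taken over probes the unadjusted limma p was 0.0569.

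Slide 2 was higher than slide 1 by 0.55 for Mep1b and lower by 0.68 for Mep1a. Within the slides Mep1b differed between the diets by 0.38 and 0.31, with a difference of 0.35 where slide was a block (limma adjusted p = 0.182). Mep1a ranged from 4.12 to 5.48 (median 5.02) in the NPD and from 4.55 to 5.60 (median 4.78) in the HPD rats. Its difference of -0.07 (95% interval -0.55 to 0.40) was -0.04 on slide 1 and 0.09 on slide 2. The difference of Mep1b minus Mep1a within an array was 2.45 ± 0.76 in the NPD and 2.95 ± 0.68 in the HPD group (SD, n = 7 each), with an exact permutation p of 0.214 (adjusted 0.404).

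St14 and Prss8, the serine proteases of the matriptase and prostasin cascade, were higher than the NPD mean in 6 of 7 HPD rats each. St14 ranged from 7.87 to 8.60 (median 8.32) in the NPD and from 8.20 to 8.89 (median 8.49) in the HPD rats, a difference of 0.27 (SE 0.15, exact permutation p = 0.0892). Prss8 ranged from 6.24 to 7.09 (median 6.68) and from 6.27 to 7.26 (median 7.09), a difference of 0.29 (SE 0.17, exact permutation p = 0.119). Their limma adjusted p were 0.367 and 0.372. After cyclic loess the differences were 0.07 and 0.12. Slide 2 was higher by 0.39 for each gene in the fit of diet and slide. With slide as a block the diet differences were 0.21 and 0.23. The probe of Prss8 was printed in 10 spots, whose SD on an array was 0.034. The difference between these genes within an array was 1.56 ± 0.21 in the NPD and 1.54 ± 0.24 in the HPD group (SD, n = 7 each), with an exact permutation p of 0.888.

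**Figure D2:**
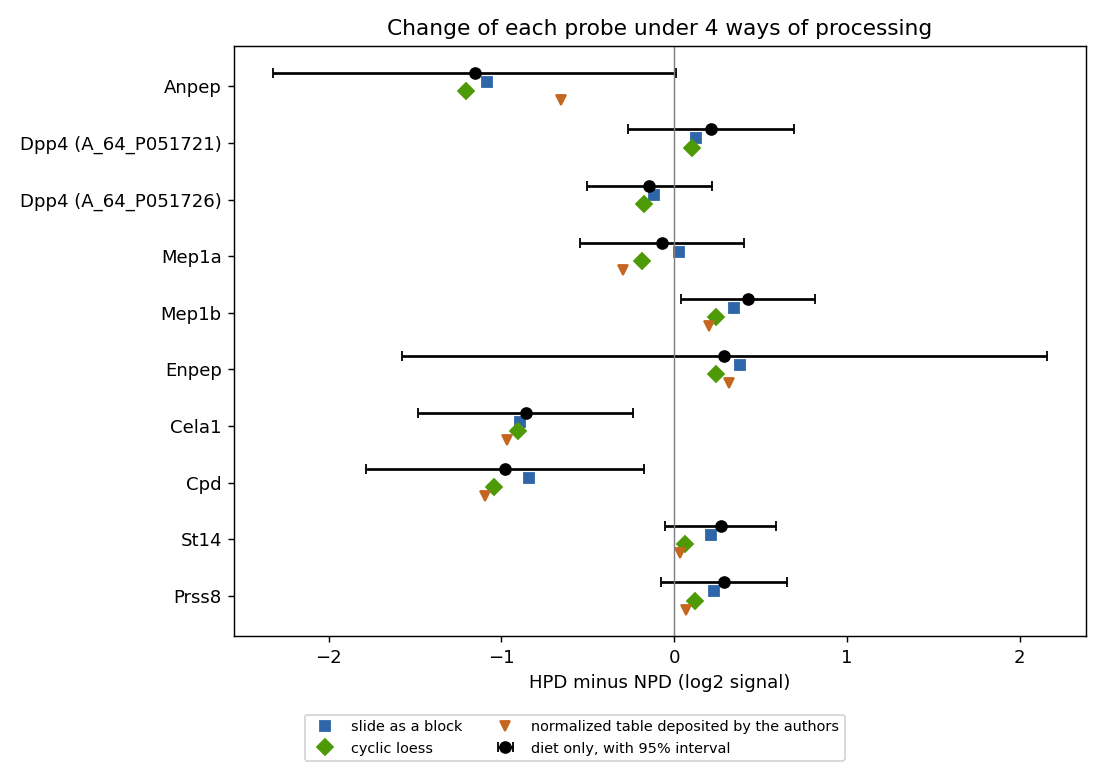
Difference between the diets (HPD minus NPD, log2 signal) of each probe with diet as the only term and its 95% interval (black), with slide as a block, after cyclic loess, and in the normalized table of the authors, which has 1 value per gene name and is therefore not drawn for the probes of Dpp4. The differences of Cela1 and Cpd stay between -1.09 and -0.84 in these 4, while those of Mep1b, St14 and Prss8 are smaller after cyclic loess and in the table.

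In the normalized table that the authors deposited, Cela1 differed by -0.97 (SE 0.25) and Cpd by -1.09 (SE 0.38), with limma adjusted p of 0.157 and 0.169, and 0 of the 9 genes passed a q-value of 0.1 (0.0681% of its 26414 gene names did, 0.0265% of them lower). With slide as a block in that table, Cela1 (adjusted p = 0.0571) and Cpd (adjusted p = 0.0745) fell, 2 of the 9 genes, beside 6.5% of all gene names called lower and 10.5% called in either direction. The same pair passed with normexp background correction (adjusted p = 0.0472 and 0.0522), beside 5.26% of all probes called lower. Anpep differed by -0.65 in the table (adjusted p = 0.196), and Mep1b by 0.20 (adjusted p = 0.298). The study itself listed Cela1 and Cpd as lower in HPD rats at a q-value below 0.1. The deposited table did not return those calls here with diet as the only term, although the study describes diet as its fixed effect. With slide as a block it did, at differences of -0.98 for Cela1 and -0.94 for Cpd. The study's fold changes place Cela1 slightly below Cpd, the order of the blocked fit and not of diet alone. Its q-values place Cpd first, which neither fit does. Whether the study's fit held a slide term was not tested.

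The probes varied together from rat to rat only in part. Cela1 and Cpd had the lowest unadjusted p of the members in the limma fit of diet alone. After the mean of each diet within each slide was taken off, Pearson's r between them over the 14 arrays was -0.19. It was highest for Anpep with Dpp4 probe A_64_P051721 (0.74) and for that probe with Mep1b (0.73), and lowest for Cpd with St14 (-0.79) and Enpep with St14 (-0.73). St14 and Prss8 had an r of 0.44, and Mep1a and Mep1b 0.04. These values share the arrays and their centring and are given as a description.

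**Figure D3:**
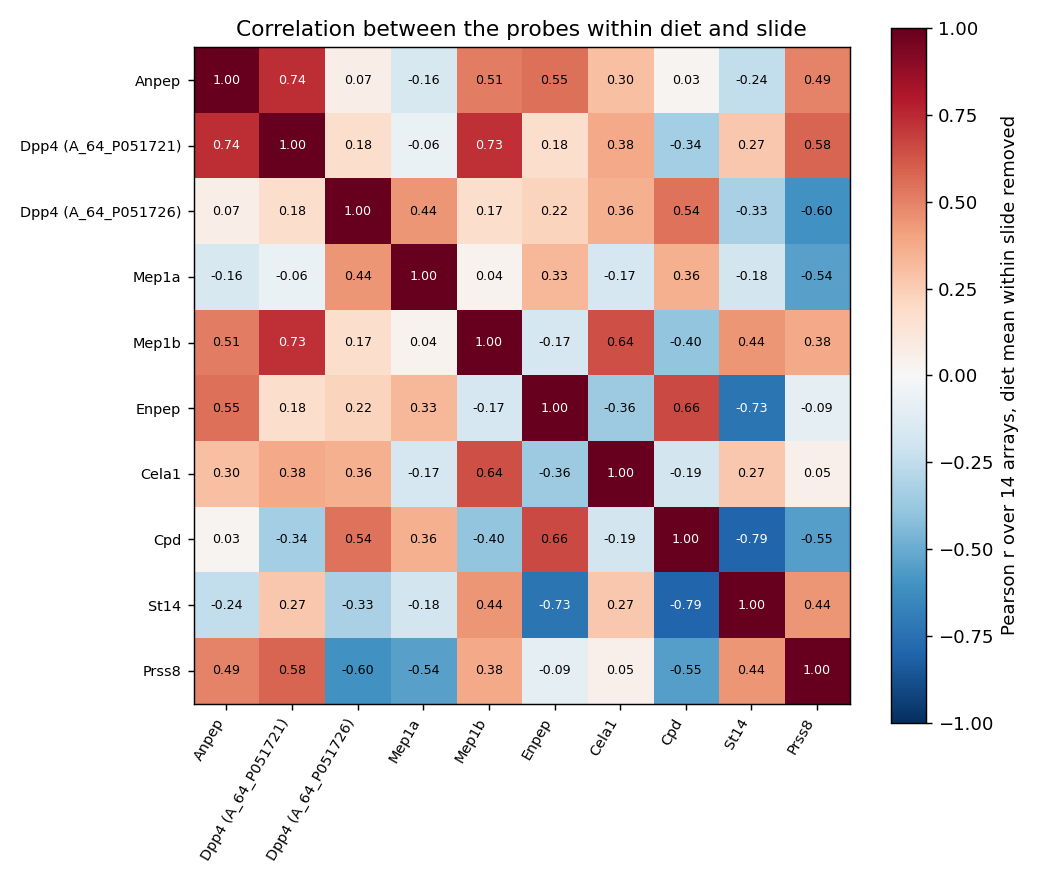
Pearson's r between the 10 probes over 14 arrays after the mean of each diet within each slide was subtracted, with red for positive and blue for negative values. The highest value is 0.74, of Anpep with Dpp4 probe A_64_P051721, and the lowest -0.79, of Cpd with St14. Among the brush-border genes Mep1a stands at -0.16 with Anpep, 0.04 with Mep1b and 0.33 with Enpep. With the Dpp4 probes it stands at -0.06 (A_64_P051721) and 0.44 (A_64_P051726).

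Among 12876 gene names above background on all arrays, those closest to Cpd by the same measure were Ppp2r2a (r = 0.98), a regulatory subunit of protein phosphatase 2A, Actr10 (0.98) and Hdac3 (0.98), a histone deacetylase. Each had a lower HPD mean, by differences of -1.20, -0.80 and -0.67, with a limma adjusted p of 0.363 each. The genes named here were picked for the highest r among many candidates over 14 arrays and are given as a description. Those closest to Cela1 were Pigs (0.93), Akt1 (0.90) and Mthfd2l (0.90), with differences between -0.23 and -0.0058. Those closest to St14 were Ado (0.99), LOC685045 (0.96) and Gnai2 (0.96), and to Prss8 Tut1 (0.94), Zfp46 (0.94) and Gpr56 (0.93). For Mep1b they included Ctse (0.90), which encodes cathepsin E, and LOC690776 (0.89), and for Mep1a they were Asap1 (0.89), Wwp2 (0.88) and a predicted transcript (0.88). For the brighter Dpp4 probe, Enpp3 (0.90) and Cyp2w1 (0.90) stood beside an unnamed transcript (0.94), for Enpep Hhex (0.92) and Col20a1 (0.90), and for Anpep Zbed3 (0.94) and Magix (0.91), each with a predicted transcript besides (0.92 and 0.99).

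Related genes were counted over 6 lists: other membrane ectopeptidases, carboxypeptidases, intracellular peptidases of short peptides, membrane serine proteases with their inhibitors and targets, secreted serine proteases with Kazal inhibitors, and astacin and matrix metalloproteases. Of 103 genes listed, 101 were on the array, and 0 passed a q-value of 0.1 in limma, beside 0.0685% of all gene names by their brightest probe. At an unadjusted p under 0.05, 3 of 101 were lower, beside 3.35% of gene names, and 15 of 101 higher, beside 10.5%. The median difference was 0.12, beside 0.17 over all probes. The genes lower at that level were Dpp7 (-0.33) and Cndp2 (-0.41), intracellular peptidases, and Mmp7 (-0.69), the metalloprotease matrilysin.

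Those higher at that level included Spink4, a Kazal-type inhibitor of goblet cells, with a difference of 1.89 (SE 0.43, limma adjusted p = 0.363). Spink4 is also 1 of the 8 goblet cell markers, of which 5 had a lower and 3 a higher HPD mean. Spink5, another Kazal-type inhibitor, was at 0.57 and Prss12 at 0.84. Of the ectopeptidases, Dpep1, a dipeptidase of the brush border, was at 0.47 (SE 0.16), Ecel1 at 0.33 and Ece1, an endothelin-converting enzyme, at 0.28, with Lnpep also under that p. Of the serine proteases of the membrane, Prss27 was at 0.48 and Tmprss3 at 0.28. The others were Cpa1 (0.84), Cpa6 (0.42), Cpz (0.58), Tll1 (0.39), Timp3 (0.29) and Pgpep1 (0.28). Of these, Prss12, Cpa1, Cpa6 and Timp3 were above background on 0 arrays, so that their values compare background signals.

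**Figure D4:**
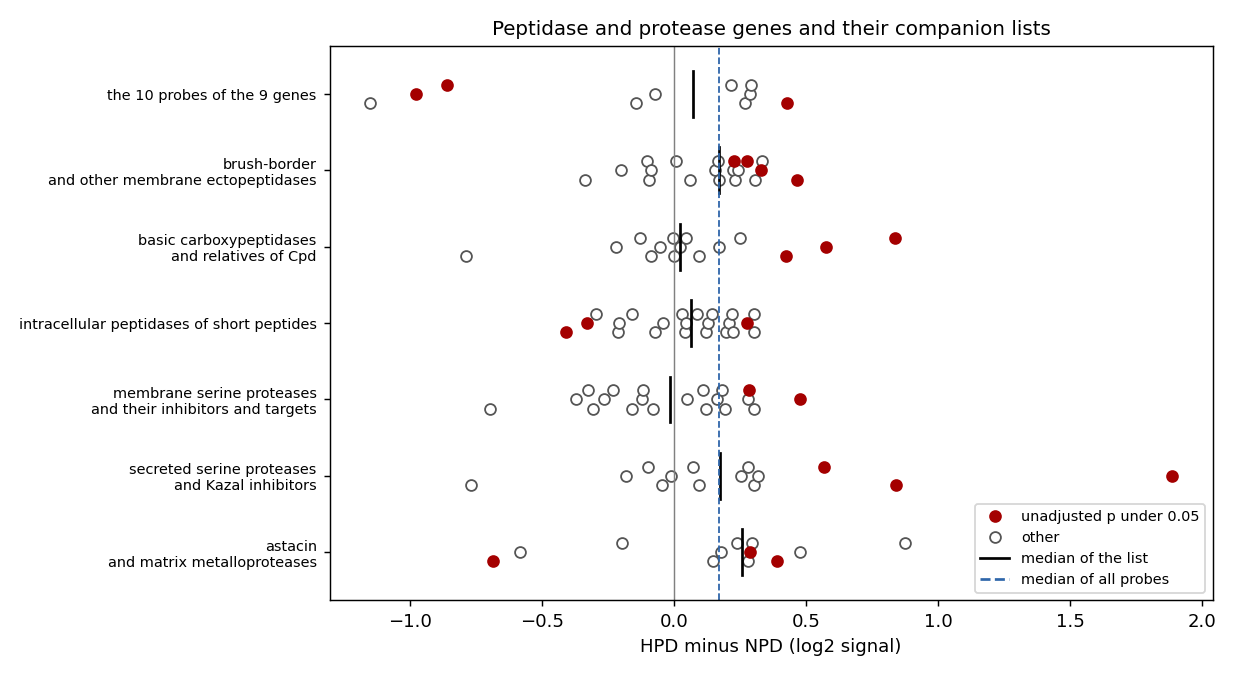
Difference between the diets (HPD minus NPD, log2 signal) of the 10 probes of the 9 genes and of each gene in the 6 related lists by its brightest probe, with filled symbols for an unadjusted limma p under 0.05, black bars for the median of each row and a dashed line for the median of all probes (0.17). Anpep, Cpd and Cela1 lie lowest in the top row, at -1.15, -0.98 and -0.86, and Spink4 lies highest among the related genes, at 1.89.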

How the data were processed

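Colonocyte RNA of 7 NPD and 7 HPD rats was measured on 1-colour Agilent arrays, and diets and replicate numbers were taken from the labels. The authors deposited 1 scanner file per array (Agilent Feature Extraction 10.7.3.1, per the submitters' processing notes), in which each of 62976 spots has an intensity on a linear scale, with and without background subtraction. Their further file, also deposited by the authors, gives normalized log2 values for gene names. Checked against the scanner output, it holds the log2 of the median pixel signal minus the mean of all spots of the array, averaged per gene name, for all of 26261 names compared (100% within 0.001). Rats excluded by the authors as outliers were not analysed here. Columns of other samples numbered 0.

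The background-subtracted signal of spots that were neither controls nor flagged as outliers was taken as log2, the median of the array's spots was subtracted, and the spots of each probe were then averaged. HPD and NPD were compared in R 4.3.3 by limma 3.58.1 (functions lmFit and eBayes), with no term but diet. The p-values of 30367 probes were adjusted by the Benjamini-Hochberg procedure and called at a q-value below 0.1. Files were read with version 1.17.8 of data.table. Single probes were compared by exact two-sided permutation tests. The number of arrays limits the precision. The members and lists were chosen with earlier results of these data known.

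Named were all members with every probe, the related genes with an unadjusted p under 0.05 (values for up to 3 per list by smallest p), and the 3 gene names closest to each member, of which 1 is not reported here. Marker lists for epithelium, absorptive colonocytes, goblet cells, small-intestinal enterocytes, stem and cycling cells, exocrine pancreas, immune cells, and stromal and muscle cells were examined. At an unadjusted p under 0.05 (3.35% of gene names lower and 10.5% higher) the enterocyte list had 1 gene higher, the stem and cycling list 1 lower, the immune list 1 higher, the stromal list 2 higher, the epithelial list 1 lower, the absorptive list 2 higher, the pancreas list 2 higher, both above background on 0 arrays, and the goblet list 1 lower and 1 higher, with 0 called in each. The alternatives were other signal columns, background corrections, centrings and normalizations, a filter on dim probes, slide or replicate number as a block, a variance trend, the authors' normalized values, a q-value below 0.05, the mean over a gene's probes, and each array left out once. The transcripts named for the 10 probes were found among RefSeq transcripts in 10 of 10 cases, which does not test the probe sequences.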

Additional observations from a re-analysis of the deposited data

Results flagged for a closer look

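In the HPD group, Prss8 in replicate 1 lay apart from the other rats, at 6.27 against 6.95 for the next lowest. The gap was 0.687 of the range of the 7 rats, above the critical value of Dixon's test, which chance passes in about 1 of 20 groups. Here 20 groups (10 probes in 2 diets) were examined and 1 lay above it. The diet difference of Prss8 was 0.29 with this rat and 0.41 without it (limma adjusted p = 0.151). NPD replicate 1, on the same slide, was the lowest of its group, at 6.24. The same HPD rat had the highest Cpd, Mep1a and Dpp4 probe A_64_P051726 values of its group and the lowest St14 value. On the other Dpp4 probe, A_64_P051721, it had the lowest value of its group. What sets it apart was not tested.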

How the results depend on the processing

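Of the 10 probes 0 passed the threshold in the reported setting and in 28 of the 32 others, including each array left out in turn (0 to 0). With normexp 2 passed, with normexp and slide as a block 3, in the authors' table blocked by slide 2, and in that table with the replicate block 2. Cela1 and Cpd passed in each of these and Mep1b (adjusted p = 0.0844) with normexp and slide as a block. The related genes passing numbered 36, 43, 15 and 15 in the same order, and 0 in the other settings, while the probes called in all were 11809 and 13549 with normexp, beside 21 in the reported setting, and the gene names called in the table were 2767 and 4039. The cause was not tested. Cela1 lay between -1.03 and -0.71 and Cpd between -1.25 and -0.77 over all settings, with adjusted p from 0.0273 to 0.558 and from 0.0299 to 0.56. The sign turned for Mep1a with slide as a block (0.026) and, with arrays left out, for Mep1a (range -0.21 to 0.012) and Enpep (-0.14 to 0.89, with -0.12 without NPD replicate 3). The cause was not tested.

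The array median was first taken over spots, then over probes to match earlier counts from these data, and then over spots again, the order in which the methods give the steps, with both sets of results known. The setting over probes and the one with values not above background set to missing were chosen after seeing the data. The choice decides which of Anpep and Mep1b has an unadjusted p under 0.05. Over probes, limma called 17 probes in place of 21, with 3465 in place of 4124 at an unadjusted p under 0.05, the median difference was 0.11 in place of 0.17, and the unadjusted limma p of Anpep and Mep1b crossed 0.05, that of Anpep downward and that of Mep1b upward, while 0 of the 10 probes were called in either.

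Rats of the diets share replicate numbers, but the labels name nothing that a number marks. The deviations of same-numbered rats correlated between -0.17 and 0.67, with 6 of 7 over 0.1 and the lowest in the 1 pair whose rats lay on different slides, and in 1 of 7 pairs an NPD rat correlated best with its own number. The numbers were not taken as a pairing, since not every pair was over 0.1. Between same-numbered rats, Mep1b and Prss8 were higher in the HPD rat in 7 of 7 and Cela1 in 1 of 7. The count was 2 of 7 for Cpd, 3 for Anpep and Mep1a, 4 for Enpep, 5 for St14, and 5 and 2 for the Dpp4 probes. The share over all probes was not counted, and their median difference between the diets was 0.17. With the replicate block 0 of the 10 probes and 0 related genes passed, and 11 probes in all. Signals near background limit Anpep and Enpep.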
